A study of Mus musculus with 4 samples.

Results

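Intraflagellar transport and BBSome genes were examined in RNA sequencing of mouse lung. The 36 genes were taken by name from the deposited expression table, which holds 21931 genes, and all 36 were found there and passed the filter on low counts. They fall into 13 subunits of the IFT-B complex, 6 of the IFT-A complex, the IFT-A adaptor Tulp3, 2 subunits of the dynein-2 motor and 3 of the kinesin-2 motor. The remaining members are 7 BBSome subunits, the GTPase Arl6 and 3 chaperonin-like proteins. All mice were of the C57BL6 strain and 2 months old, received no treatment, and gave lung tissue for total RNA. Of the 4 libraries, 1 was labelled wild type, 2 Dnah9 knockout and 1 Hez, a genotype the labels do not spell out. The sources used here do not say how the Dnah9 allele was made or whether animals were littermates or pooled. Replicate numbers only name the libraries, and since nothing states that they came from separate animals, a p-value here covers only library-to-library spread that may be technical.

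Cilia are built and maintained by intraflagellar transport, in which trains of IFT-B and IFT-A particles carry cargo along the axoneme. Kinesin-2 moves the trains towards the tip and dynein-2 returns them to the base. The BBSome is a coat-like complex that rides on the trains and removes or sorts membrane proteins. Unlike the axonemal dyneins of motile cilia, this machinery also serves the primary cilia of many cell types, so in lung its transcripts come from the multiciliated cells of the airways and from other cells. In whole tissue, fewer cells of a type and less RNA per cell cannot be told apart.

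The total read count per library was 15860478 to 16553480. Reads of Dnah9, an outer arm dynein gene of motile cilia, numbered 917 in wild type, 420 in Hez, and 240 and 254 in knockout libraries 1 and 2. Levels are given as CPM, read counts adjusted for library size, and Sftpc, the alveolar type 2 cell marker of lung, was at 12168 to 13876 CPM. Groups were compared with edgeR's quasi-likelihood test, two-sided, with Benjamini-Hochberg adjustment over all genes tested and a threshold of 0.05. Because wild type and Hez had 1 library each, the spread came from the knockout pair when either was the reference. It was moderated over all genes, and the lone libraries were assumed to vary alike.

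Promoter sequences are shown for the 3 members with the smallest p against wild type (Traf3ip1, Ift57 and Ift88), and for Bbs7, a BBSome gene whose promoter, like that of Ift57, holds a paired motif. Many ciliary genes are controlled by RFX factors, which bind the X-box, an inverted repeat with the arm GTTGCC. The 250 bases before the RefSeq start site are given on GRCm38.p6, 5′ to 3′ on the gene's strand, with each GTTGCC (or its reverse complement) in capitals:
Traf3ip1 (chr1:91494418-91494667, plus strand): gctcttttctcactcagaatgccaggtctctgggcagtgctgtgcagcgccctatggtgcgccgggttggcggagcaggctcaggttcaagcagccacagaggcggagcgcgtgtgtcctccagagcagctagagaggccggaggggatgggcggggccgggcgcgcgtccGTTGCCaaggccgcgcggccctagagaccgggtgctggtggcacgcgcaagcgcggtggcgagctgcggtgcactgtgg
Ift57 (chr16:49699044-49699293, plus strand): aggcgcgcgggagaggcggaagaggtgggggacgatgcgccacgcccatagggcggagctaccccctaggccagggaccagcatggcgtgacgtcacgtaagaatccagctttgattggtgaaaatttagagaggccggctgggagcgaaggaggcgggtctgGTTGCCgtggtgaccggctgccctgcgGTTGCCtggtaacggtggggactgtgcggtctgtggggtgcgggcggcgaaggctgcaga
Ift88 (chr14:57423821-57424070, plus strand): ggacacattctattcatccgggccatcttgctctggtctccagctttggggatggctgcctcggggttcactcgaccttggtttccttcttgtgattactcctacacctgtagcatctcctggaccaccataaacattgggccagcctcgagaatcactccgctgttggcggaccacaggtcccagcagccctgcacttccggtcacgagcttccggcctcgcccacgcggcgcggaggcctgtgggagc
Bbs7 (chr3:36613390-36613639, minus strand): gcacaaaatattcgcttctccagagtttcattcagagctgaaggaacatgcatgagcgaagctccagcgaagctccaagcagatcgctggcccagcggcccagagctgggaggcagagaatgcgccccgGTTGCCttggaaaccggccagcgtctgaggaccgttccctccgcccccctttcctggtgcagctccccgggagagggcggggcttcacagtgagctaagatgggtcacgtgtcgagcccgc

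The arm GTTGCC, searched on both strands, was present in 6 of the 33 member promoters in the RefSeq table (18.2%) and in 10.4% of all 32851 promoters of the same length. The 6 member promoters belonged to Traf3ip1, Ift57, Ift27, Ift140, Kif3a and Bbs7. In Ift57 the arm nearer to the start site, 60 bases before it, is followed by the second arm GGNAAC after a gap of 1 base, a pairing held by 0.167% of all promoters. In Bbs7 the same arms are 2 bases apart, as in 0.244% of all promoters, and no other member promoter matched either pairing. With the looser spelling GTTNCC, which includes GTTGCC, 22 of 33 member promoters (66.7%) and 39.4% of all promoters matched, Ift88 among them. Member promoters had a median GC content of 59.6% against 52.4% over all promoters, and its part in these shares was not tested. The 33 promoters belong to 32 members, and Ift80, Ift81, Ift122 and Dync2li1 were not matched.

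Levels per length were moderate across the machinery. Mean FPKM, the deposited read count scaled to gene length and library size, ran from 1.94 for Bbs10 to 26.5 for Ift20, with a median of 5.08 over the members and 5.82 over all 15055 genes tested. The most abundant per length were Ift20, an IFT-B subunit that also sits at the Golgi, Ift43 of IFT-A (21.9), Traf3ip1 (17.6), Dync2li1 (17.3) and Ift52 (14.5). The kinesin-2 subunits had a mean FPKM of 12.8 (Kifap3), 10.5 (Kif3b) and 8.99 (Kif3a), with Ift172 of IFT-B between the first and the second at 11.5. The lowest levels were those of Bbs10, the dynein-2 heavy chain gene Dync2h1 (1.97), Ttc21b (2.08) and Bbs12 (2.13). A member had 75 to 1385 reads in a library, and the 95% exact Poisson interval of a wild type value reached 5.30% to 22.7% to either side of it, which covers counting error only.

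**Figure D1:**
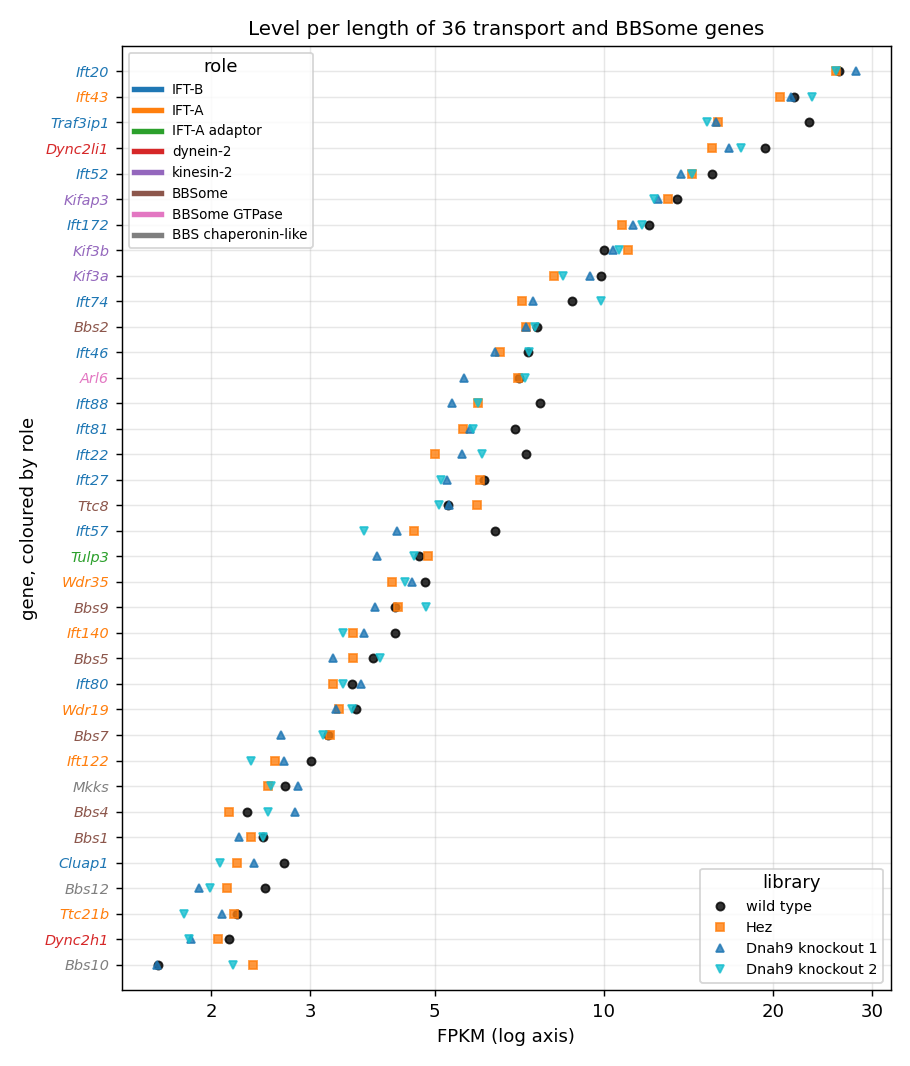
FPKM (log axis) of the 36 genes in the 4 libraries, 1 point per library, with gene names coloured by role. Genes are ordered by mean level, with Bbs10 at the bottom and Ift20 at the top, and Ift20 is the highest member in each library while the lowest is Bbs10 in wild type and knockout 1, Dync2h1 in Hez and Ttc21b in knockout 2. The wild type point is the farthest right for Traf3ip1, Ift57 and Ift88.

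Against wild type, no member passed the threshold: 0 of 36 were called by edgeR, where 0.0531% of all genes tested were called, and 0 of 36 by limma-voom. DESeq2 called 0 of the 26 members to which it gave an adjusted p and gave none to the other 10, among them Ift57. At an unadjusted p below 0.05, 3 members were lower, all of IFT-B (Traf3ip1, Ift57 and Ift88), against 3.37% of all genes, and 0 were higher, against 1.81%. Both knockout libraries lay below the wild type library for 22 of 36 members, while 33.4% of all genes did so, and above it for 4 members, against 33% of all genes. Fitted folds were negative for 28 of 36 members, against 48.9% of all genes. The median log2 fold was -0.12 over the members (-0.15 in knockout 1 and -0.06 in knockout 2 alone) and 0.0045 over all genes. The 95% interval of the fold lay within a change of 1.5-fold in either direction for 21 of 36 members. It excluded a 1.5-fold decrease for 24 of 36. The share over all genes was not computed for these interval counts.

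The wild type library was the highest of the 4 for 20 of 36 members, against 25.2% of all genes. This order was found for 9 of 13 IFT-B genes, 5 of 6 IFT-A genes, both dynein-2 genes, 2 of 3 kinesin-2 genes and 1 of 7 BBSome genes. Among tested subunits outside the 36, the IFT-B genes Hspb11, Ttc26 and Ttc30a1 lacked this order, with log2 folds against wild type of 0.14, 0.03 and 0.16. The IFT-B gene Ttc30b (-0.16) and the BBSome gene Bbip1 (-0.19) had it. Summed over the 13 IFT-B genes, the level was 505 CPM in wild type, 427 in Hez, and 436 and 443 in the knockout libraries. Traf3ip1 made up part of that gap, and without it the sums were 420, 368, 377 and 386 CPM. For the 7 BBSome genes the sums were 131 in wild type, 131 in Hez, and 126 and 135 in the knockouts, so wild type lay inside the range of the other libraries. The difference between the complexes was not tested.

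Traf3ip1 encodes IFT54, an IFT-B subunit that binds microtubules (ENSMUSG00000034292, chromosome 1, 91422369 to 91457029 on GRCm39). It had 85.5 CPM in wild type, 59.4 in Hez, and 59.3 and 56.6 in knockout libraries 1 and 2. The 3 libraries other than wild type thus lay close together, at 69.5%, 69.4% and 66.2% of it, and their counting intervals did not reach the wild type interval of 81.0 to 90.1. The log2 fold against wild type was -0.56 (SE 0.102, n = 2 against 1, edgeR adjusted p = 0.311) and did not pass. Against Hez it was -0.04 (95% interval -0.28 to 0.21).

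Ift57, whose product belongs to the peripheral part of IFT-B, lies on chromosome 16 from 49519596 to 49585489 (ENSMUSG00000032965). Its level was 18.2 CPM in wild type, 13.2 in Hez, and 12.4 and 10.7 in the knockouts, wild type being the highest and both knockouts the lowest. The log2 fold was -0.66 against wild type (SE 0.203, edgeR adjusted p = 0.677) and -0.19 against Hez (95% interval -0.68 to 0.29). Ift88, the Polaris gene whose product belongs to the IFT-B core, lies on chromosome 14 from 57661519 to 57755393 (ENSMUSG00000040040). It stood at 35.4 CPM in wild type, 27.7 in Hez, and 25.0 and 27.6 in the knockouts. Only the wild type library stood apart, with a log2 fold of -0.43 against it (SE 0.148, edgeR adjusted p = 0.811) and -0.08 against Hez.

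Ift81, which carries tubulin together with Ift74, had 40.4 CPM in wild type, 32.9 in Hez, and 33.9 and 34.0 in the knockouts. Its log2 fold was -0.25 (SE 0.131, edgeR adjusted p = 0.996), and its wild type counting interval lay above both knockout intervals. Of the 36 members, 4 had this order (Ift81, Traf3ip1, Ift57 and Ift88), against 4.39% of all genes, and 0 had the opposite order, against 3.49%. The other 9 IFT-B genes had log2 folds of -0.30 (Ift22, a small GTPase subunit) to 0.06 (Ift20). Wild type was not the highest library for Ift20, Ift46, Ift74 and Ift80. For Ift74, the knockout libraries stood apart from each other, at 19.98 and 26.2 CPM around 23.2 in wild type, and their intervals did not overlap. Hez was below wild type for all 13 IFT-B genes, against 50.4% of all genes, by a median of -0.26 on the log2 CPM scale.

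**Figure D2:**
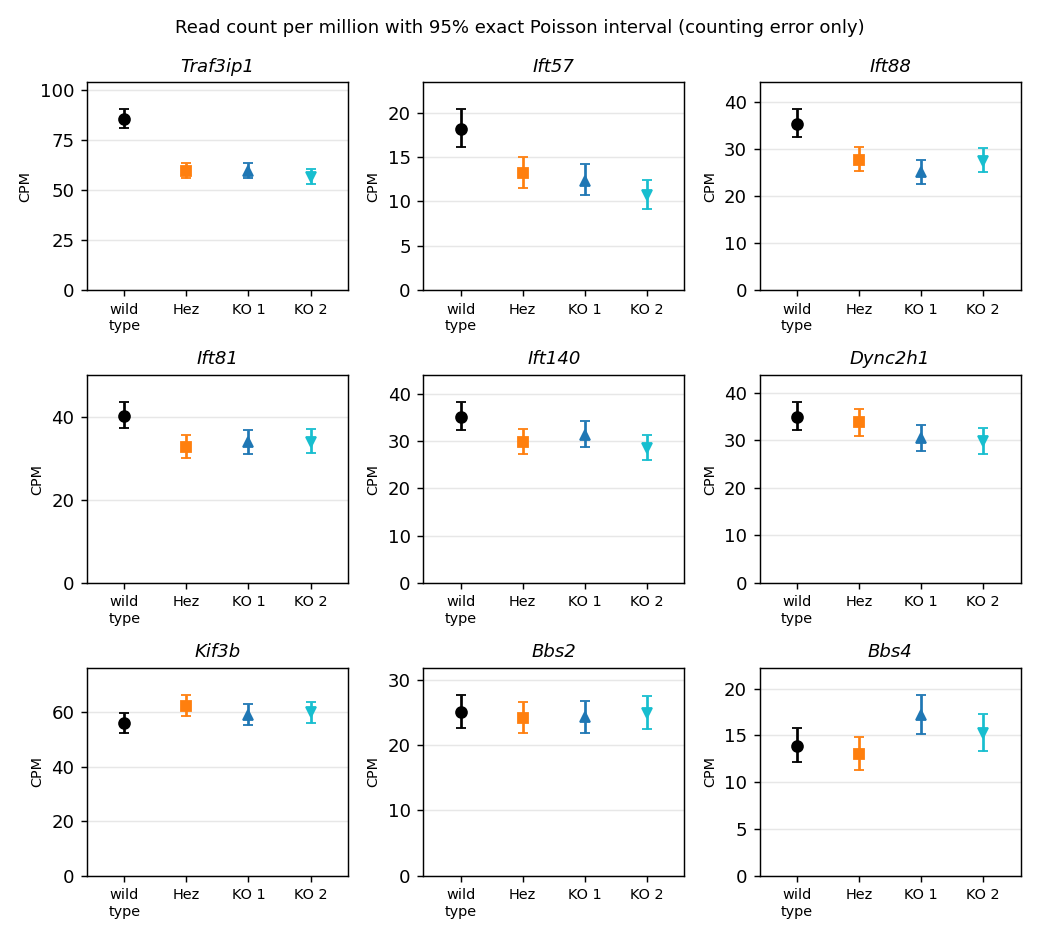
CPM of 9 members in each library (KO, Dnah9 knockout), with 95% exact Poisson intervals that cover counting error only. In Traf3ip1, Ift57, Ift88 and Ift81 the wild type library lies above the other 3, while Kif3b and Bbs4 have their highest value in Hez and in knockout 1.

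The IFT-A complex carries out return transport and, with Tulp3, the entry of membrane receptors. Ift140, a core subunit, had 35.2 CPM in wild type, 29.9 in Hez, and 31.4 and 28.5 in the knockouts, and its span overlaps Tmem204 on the opposite strand, which had 3563 reads in wild type. Ift122, also of the core, had 30.9, 26.9, 28.0 and 24.3 CPM in the same order of libraries. Wild type was highest for both, Hez lay between the knockout libraries, and the log2 folds were -0.23 (SE 0.145) and -0.24 (SE 0.159), each with edgeR adjusted p = 0.996.

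Ttc21b, which encodes the peripheral subunit IFT139, had 20.5 CPM in both wild type and Hez, and 19.6 and 16.6 in the knockouts. Wdr35, the gene of IFT121, had 34.8 in wild type, 30.6 in Hez, and 33.3 and 32.2 in the knockouts. In Ttc21b the low library was knockout 2, whereas in Wdr35 it was Hez, and the log2 folds were -0.18 (SE 0.185) and -0.09 (SE 0.138). Wdr19 and Ift43 had log2 folds of -0.06 and 0.06. The adaptor gene Tulp3 stood at 43.5 CPM in wild type, 45.4 in Hez, and 37.1 and 42.9 in the knockouts, so that the knockouts lay below both references, by a log2 fold of -0.12 (SE 0.136) against wild type and -0.18 against Hez.

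Among the motors, Dync2h1, the heavy chain that drives return transport, had 34.9 CPM in wild type, 33.7 in Hez, and 30.4 and 29.8 in the knockouts. Both knockouts lay below both references, with log2 folds of -0.22 (SE 0.138) against wild type and -0.16 against Hez. Dync2li1, its light intermediate chain, had 35.9 in wild type, 29.2 in Hez, and 31.4 and 32.8 in the knockouts, with Hez the lowest and a log2 fold of -0.16 (SE 0.138) for the knockouts. Kif3a, a motor subunit of kinesin-2, had 35.2 in wild type, 29.3 in Hez, and 34.2 and 30.3 in the knockouts.

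Kif3b, its partner motor subunit, had 56.0 CPM in wild type, 62.3 in Hez, and 59.0 and 59.9 in the knockouts, and was one of 2 members with wild type as the lowest library, along with Bbs10 (24.2% of all genes had that order). Kifap3, the accessory subunit, had 53.9 in wild type, 52.3 in Hez, and 50.4 and 49.2 in the knockouts. The 3 kinesin-2 subunits thus did not share a direction, and their log2 folds against wild type were -0.13, 0.09 and -0.12 for Kif3a, Kif3b and Kifap3. Their standard errors were 0.106 to 0.147, and the 95% intervals lay within 1.5-fold for each of them.

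The BBSome genes had a median log2 fold of -0.03 against wild type, and 0 of 7 passed the threshold. Bbs4 had 13.9 CPM in wild type, 13.0 in Hez, and 17.2 and 15.2 in the knockouts, which lay above both references, with a log2 fold of 0.22 (SE 0.2, edgeR adjusted p = 0.996). Its span overlaps 2063 bases of Adpgk on the opposite strand. Ift43 was the only other member with both knockouts above both references, an order that 17.5% of all genes had.

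Bbs7 had 17.3 CPM in wild type, 17.5 in Hez, and 14.4 and 17.0 in the knockouts. Bbs1 had 18.9 in wild type, 18.1 in Hez, and 17.3 and 18.9 in the knockouts. In both genes knockout 1 was the lowest library while knockout 2 lay near the references. Bbs5 had 9.44 in wild type, 8.77 in Hez, and 8.12 and 9.75 in the knockouts, which enclosed both references. Bbs2, Bbs9 and Ttc8 had log2 folds of -0.03, 0.05 and -0.01. For Bbs9 the intervals of the knockout libraries, at 24.7 and 30.02 CPM, did not overlap, as in Ift74. These were 2 of 36 members, against 19.6% of all genes.

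Arl6, the GTPase that recruits the BBSome to membranes, had 14.8 CPM in both wild type and Hez, and 11.9 and 15.2 in the knockouts. The chaperonin-like proteins, which help to assemble the BBSome, had few reads and wide errors. Bbs12 had 6.05 CPM in wild type, 5.20 in Hez, and 4.67 and 4.85 in the knockouts. Its log2 fold of -0.35 had a standard error of 0.312, and its span overlaps 155 bases of Cetn4 on the opposite strand, which had 287 reads in wild type, 150 in Hez, and 157 and 169 in the knockouts. Bbs10 had 4.88 in wild type, 7.26 in Hez, and 4.92 and 6.67 in the knockouts, so that knockout 1 matched wild type and knockout 2 lay near Hez. Mkks had 8.70 in wild type, 8.17 in Hez, and 9.28 and 8.24 in the knockouts, a log2 fold of 0.01 (SE 0.255).

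**Figure D3:**
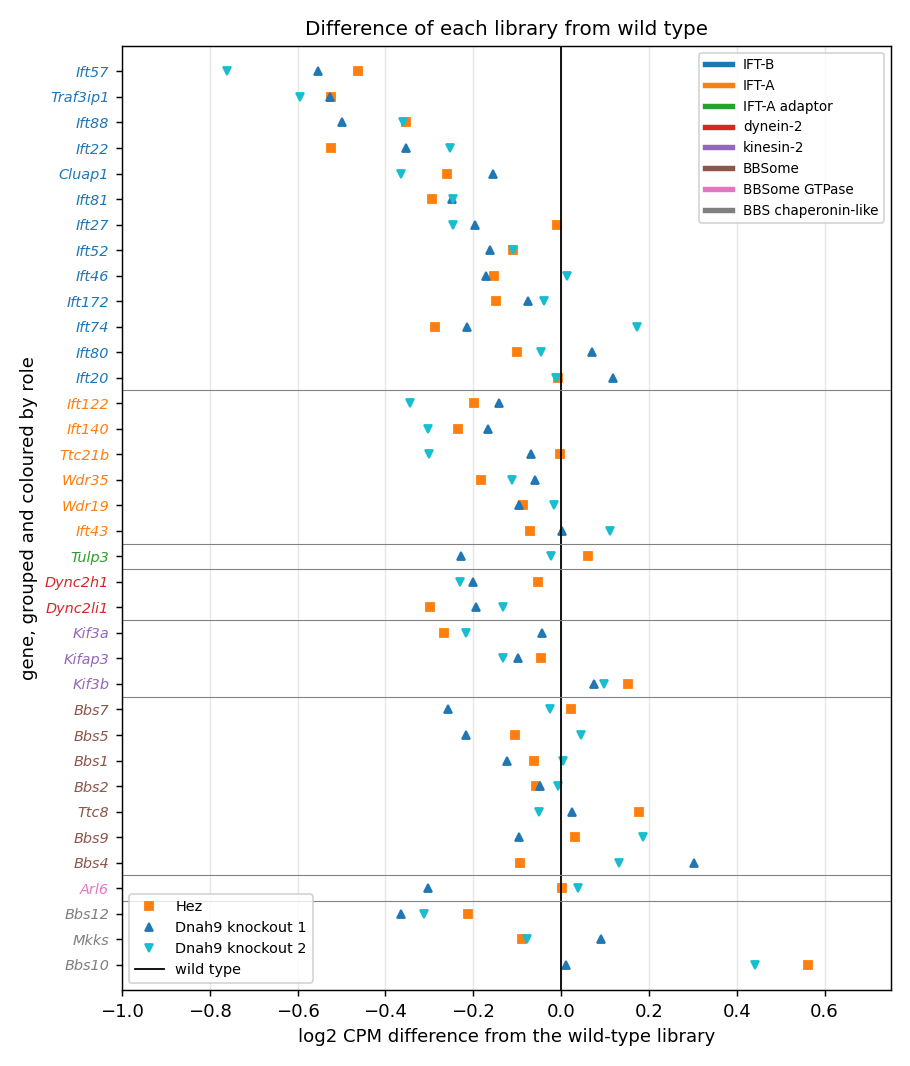
Log2 CPM difference of the Hez and both knockout libraries from the wild type library (vertical line at 0) for each gene, grouped by role. Most IFT-B points lie to the left of the line for all 3 libraries, while BBSome points scatter around it.

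Against Hez, 0 of 36 members were called by edgeR, where 0.00664% of all genes were called, and 0 by DESeq2 or limma-voom. At an unadjusted p below 0.05, 0 members were lower and 0 higher, against 2.11% and 2.5% of all genes. Fitted folds were negative for 16 members, against 47.5% of all genes. The median log2 fold of the members was 0.0038, and 0.0099 over all genes. It was 0.05 for IFT-B, 0.02 for IFT-A and 0.02 for the BBSome. Single members lay between -0.33 (Bbs10) and 0.32 (Bbs4). The 95% interval lay within 1.5-fold for 23 of 36 and excluded a 1.5-fold decrease for 28, with no share over all genes computed. Both knockouts lay below Hez for 14 members and above it for 12, against 31.9% and 34.2% of all genes. This comparison and the one with wild type share the knockout libraries.

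With wild type and Hez as 1 group of 2, the 2 were assumed to be alike, and their difference counted as spread. Dnah9, however, had 56.6 CPM in wild type and 25.4 in Hez. The standard error of Traf3ip1 was 0.154 here and 0.102 against wild type. In this grouping edgeR called 0 members (0.0136% of all genes), limma-voom 0 of 36 and DESeq2 0 of the 21 with an adjusted p. At an unadjusted p below 0.05, 0 were lower or higher, against 2.75% and 2.3% of all genes. The smallest p belonged to Ift57 (log2 fold -0.45, unadjusted p = 0.0534, adjusted p = 0.975), and the median of the members was -0.07, with negative folds for 27 of 36 (50.9% of all genes). Both knockouts lay below both references for 11 members, against 16.3% of all genes: Ift27, Ift52, Ift57, Ift88, Traf3ip1, Ttc21b, Tulp3, Dync2h1, Kifap3, Bbs7 and Bbs12.

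Hez against wild type, with 1 library each, allows no test. Hez lay below wild type for 29 of 36 members, against 50.4% of all genes. The median difference of the members was -0.10 on the log2 CPM scale, against -0.0023 over all genes. No member reached a difference of 1.5-fold, which 6.84% of all genes did downward and 2.8% upward. The largest differences were -0.52 for Traf3ip1 and Ift22 and 0.56 for Bbs10.

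Markers of multiciliated cells differed between the same libraries. All 16 markers were lower in both knockouts and in Hez than in wild type, with a median log2 fold of -0.51 for the knockouts and a median log2 CPM difference of -0.62 for Hez. Their summed level was 1329 CPM in wild type, 919 in Hez, and 997 and 987 in the knockouts, and none was at 0. Against wild type, 0 of the 16 passed the threshold in edgeR and 11 were lower at an unadjusted p below 0.05, against 3.37% of all genes. Against Hez, their median log2 fold was 0.15 and 0 passed. Both knockouts lay above Hez for 10 markers and below it for 2, against 34.2% and 31.9% of all genes. The markers with the smallest p against wild type were Dnah6, an inner arm heavy chain (-0.63, SE 0.101, edgeR adjusted p = 0.208), and Cdhr3 (-0.60, SE 0.102, edgeR adjusted p = 0.248). The 8 club cell markers were all lower in both knockouts and in Hez than in wild type. Their sums, mostly Scgb1a1, were 24500.2 CPM in wild type, 19542 in Hez, and 20460.5 and 17579 in the knockouts. Against Hez, 0 of the 8 passed and the median log2 fold was -0.04. Both knockouts lay below Hez for 3 of them and above it for 3. Against wild type, 3 of the 8 fell past the threshold (Scgb3a1, Bpifa1 and Scgb3a2), against 0.0531% of all genes. The 4 smooth muscle markers were also lower in both knockouts and in Hez, with medians of -0.62 and -0.97, and 0 of them passed. Their sums were 1408 CPM in wild type, 837 in Hez, and 1118 and 997 in the knockouts. Tagln had only 26 reads in wild type, 7 in Hez, and 6 and 13 in the knockouts, too few for a usable fold. The knockout log2 folds of Acta2, Myh11 and Cnn1 were -0.33, -0.41 and -0.83. For Hez their log2 CPM differences were -0.75, -0.64 and -1.20. Against wild type, markers of immune cells (4, median 0.26), alveolar type 2 cells (6, median 0.20) and endothelium (4, median 0.13) had positive folds throughout, and 0 passed. The immune sums were 257 CPM in wild type, 240 in Hez, and 336 and 276 in knockouts 1 and 2. Fibroblast markers (4, median -0.13) had negative folds throughout, and 2 of 4 alveolar type 1 markers did (median 0.03), and 0 passed. The part of these cell types in the IFT values was not tested.

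The other genes of the pathway were taken from 3 lists. Of 20 further subunits and partners, 19 were tested, and 0 passed the threshold against wild type, with a median of -0.14. Only 1 gene was lower at an unadjusted p below 0.05, against 3.37% of all genes. It was Dynlrb2, a dynein light chain that axonemal dyneins also use, at 41.6 CPM in wild type, 28.1 in Hez, and 30.8 and 27.4 in the knockouts (log2 fold -0.52, SE 0.145, edgeR adjusted p = 0.599). Rabl2, a GTPase that binds IFT-B, followed with -0.35 (SE 0.166). Kif17, another ciliary kinesin, was at 0.492 to 1.54 CPM, too few reads for a usable fold.

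The transition zone, the gate at the base of the cilium, was represented by 21 genes, of which 0 passed, with a median of -0.15. Of the 21, 3 were lower at an unadjusted p below 0.05, against 3.37% of all genes. The smallest p values belonged to the membrane proteins Tmem107 (17.4 CPM in wild type, 12.5 in Hez, 11.7 and 11.6 in the knockouts) and Tmem216 (14.1, 11.4, 9.22 and 8.81). Their log2 folds were -0.58 (SE 0.196) and -0.64 (SE 0.219), with edgeR adjusted p = 0.784 for both.

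Hedgehog signalling, which passes through primary cilia and needs intraflagellar transport, had 13 genes with a median log2 fold of -0.01, and 0 passed the threshold. Gli1 and Ptch1, direct targets of the pathway, stood at -0.08 (SE 0.229) and 0.07 (SE 0.15). By the smallest p the leading genes were the transcription factor Gli2, at 4.75 CPM in wild type, 5.51 in Hez, and 10.3 and 6.67 in the knockouts (log2 fold 0.83, SE 0.353, edgeR adjusted p = 0.947), and the coreceptor Cdon (-0.24, SE 0.139).

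**Figure D4:**
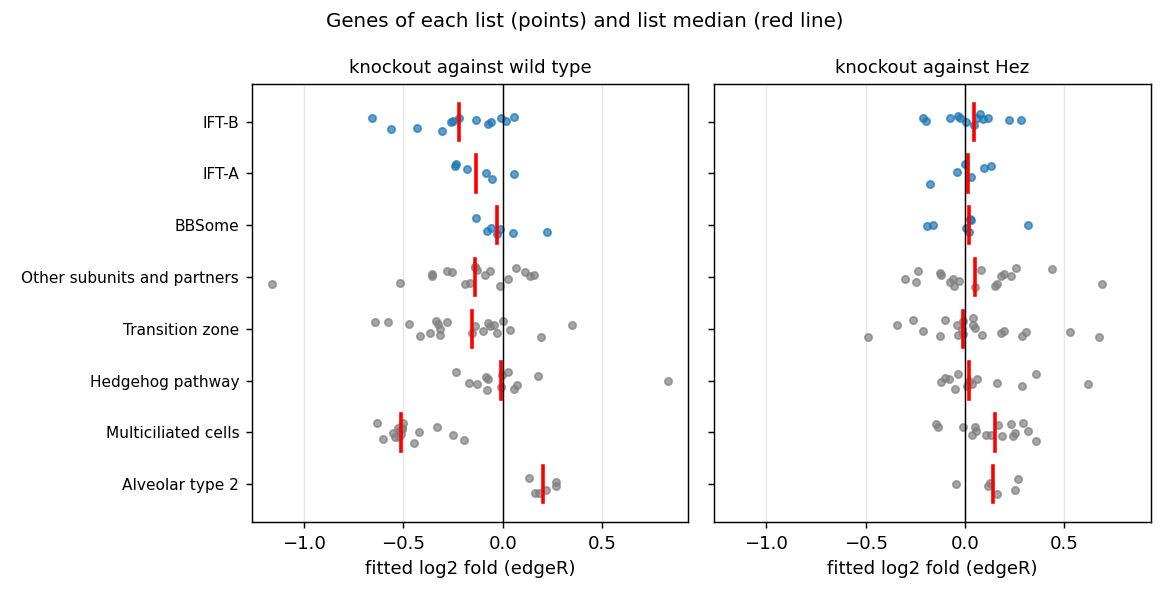
Fitted log2 folds of the genes of 8 lists (points) and list medians (red lines) for the knockouts against wild type (left) and against Hez (right). On the left the medians run from -0.51 for multiciliated cell markers through -0.22 for IFT-B and -0.03 for the BBSome to 0.20 for alveolar type 2 markers. On the right the IFT-B, IFT-A and BBSome medians lie within 0.05 of 0. Those of multiciliated cell and alveolar type 2 markers lie there at 0.15 and 0.14.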

How the data were processed

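Read counts per gene and FPKM values of 4 lung libraries were deposited by the authors in 1 table, per the file headers. The libraries were made with a TruSeq kit, per the labels' protocols, and the submitters' processing notes name the build GRCm39. Aligner, counter, annotation release and strand setting: not given in the sources used here. Overlapping genes may therefore share reads. Gene length, used by the authors for FPKM, stands in the deposited table. FPKM served to compare levels between genes, counts to test.

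Counts were scaled by TMM (factors 0.993 to 1.01), filtered with filterByExpr (minimum count 10) and tested with edgeR 4.0.16 in R 4.3.3, with 1 residual degree of freedom for 3 groups and 2 for 2 groups. The test was checked on simulated counts for false calls and for bias of the fold. No limit was set on the share of changed genes called, so the check does not vouch for the power to call a change. The simulated counts gave every library the same spread, so they could not check the assumption that the lone libraries vary like the knockout pair. Each standard error is the log2 fold over the root of its F statistic, and intervals of folds use the moderated degrees of freedom. Hez against wild type was described on log2 CPM (prior count 2). Alternatives used DESeq2 1.42.0 and limma 3.58.1, other filters and scalings, and each library left out.

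The members and lists were chosen with earlier results of these data known. Levels in every library are given for up to 4 members of each role with the smallest p against wild type, and 2 genes of each other list are named. Gli1, Ptch1, Kif17, Acta2, Tagln, Hspb11, Ttc26, Ttc30a1, Ttc30b and Bbip1 were added after their values were seen. Promoters are from RefSeq on GRCm38.p6, which was used for no other coordinate.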

Additional observations from a re-analysis of the deposited data

How the results depend on the processing

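No member was called in any of the 3 tested comparisons under another scaling, filter or test, or with a library left out where a test remained, although DESeq2 gave no adjusted p to 10 members against wild type and to 15 against wild type and Hez together. Against wild type, the count lower at an unadjusted p below 0.05 was 3, and 1 with the DESeq2 Wald test. Against wild type and Hez together it was 0, and 1 with DESeq2 or with no filter on low counts, and 0 to 3 with 1 library left out, the 3 arising without Hez. The median log2 fold of the members in that comparison ran from -0.12 without Hez to -0.00037 without wild type, so it rests on the wild type library. The median against wild type was -0.15 without knockout 2 and -0.06 without knockout 1, values with no test since no residual degrees of freedom remained, and leaving out wild type allows no value. Mkks, at 0.01, turned to -0.0024 with library totals and to -0.0037, -0.0045 and -0.0031 with limma on log2 FPKM with pseudocounts of 0.5, 0.1 and 1. No other member changed sign against wild type under another scaling, filter or test, but Ift20, Ift46, Ift74, Ift80, Bbs1, Bbs5, Arl6 and Mkks did without knockout 1, and Bbs9 and Ttc8 without knockout 2. A mean of at least 10 CPM kept 31 of 36 members. No paired analysis was possible because wild type and Hez had 1 library each and the labels link no libraries to each other.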
